A study of Homo sapiens with 4 samples.

Results

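The genes of the cytosolic ribosomal proteins were followed through the splicing events of U87MG cells, a glioblastoma cell line, after transfection of a decoy oligonucleotide against the splicing factors RBFOX1 and RBFOX2. Members were taken by gene symbol alone (RPL or RPS followed by a number, with the usual letter suffixes, and RPLP0, RPLP1, RPLP2 and RPSA). This gave 386 of 121269 listed events, in 75 of 12219 genes, 47 of the large subunit and 28 of the small subunit. The decoy RBFOXi is a single-stranded 2′-O-methyl RNA built from repeats of the RBFOX motif, and SCRM is a scrambled control of the same chemistry. Both were transfected at 2.5 µM by lipofection, in 2 libraries each, which the study describes as independent biological replicates. The oligonucleotide of RBFOXi replicate 1 is labelled as carrying Cy5, a dye that the labels do not mention for the remaining 3 libraries, and they give no harvest time. All 4 libraries come from a single cell line. Of the glial and glioblastoma markers checked, VIM (128266 to 185009 counts at its most covered skipped exon event) and CD44 (18796 to 34169) were well covered. NES had only 179 to 432 counts. RBFOX2 had 1335 and 1602 counts in the RBFOXi libraries, 351 in SCRM replicate 1 and 2392 in SCRM replicate 2. GFAP, SOX2, RBFOX1, RBFOX3 and the blood, epithelial and liver markers PTPRC, EPCAM and ALB had no event in the tables used here, so they could not be checked.

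As background, ribosomal proteins coat and stabilise the ribosomal RNA of the large and small ribosomal subunits, and cells make them in nearly equal amounts. Their genes are short, very highly transcribed and mostly spliced in a single way, and several host small nucleolar RNAs in their introns. A few ribosomal protein genes are spliced into forms that are not translated into the full protein, and for some of these the protein itself is known to feed back on its own splicing. RBFOX proteins bind UGCAUG. A copy downstream of an exon usually goes with its inclusion, and a copy upstream with its skipping.

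Reads were counted per event as inclusion (the form with the alternative region) or skipping (the form without it). The proportion spliced in (PSI, 0 to 1) is the inclusion share after division by the effective length of each form, and delta PSI is the difference of the group means, RBFOXi minus SCRM. An event was called changed when limma on the log2 odds of inclusion gave a Benjamini-Hochberg adjusted p under 0.05 and delta PSI was at least 0.1 in size.

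SCRM replicate 1 stood apart from the other libraries in the members' counts. Member genes took 9.04% of all skipped exon counts in SCRM replicate 1, but 5.73% and 5.56% in RBFOXi replicates 1 and 2 and 4.93% in SCRM replicate 2. Total counts were 114415530 to 136097319 per library, with a read counted in every event it fits, and SCRM replicate 1 had the fewest. Even so, 147 of the 155 tested skipped exon events had their most counts in that library.

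The exon that stood out among the members was a 22 nt exon near the 3′ end of RPS24. RPS24 encodes a small subunit protein needed for 18S ribosomal RNA maturation, and its mutation is a known cause of Diamond-Blackfan anaemia. The exon spans 79799962 to 79799983 of chromosome 10 (hg19, plus strand), inside the gene model at 79793518 to 79816571. In the GENCODE annotation lifted to this build, the stop codon of 3 transcripts is formed by the first bases of this exon (79799962 to 79799964), whereas 1 transcript that reads past it stops in the next exon (79800382 to 79800384). Between these transcripts, the presence of the exon sets where the reading frame ends. The sequences are shown because they hold the exon and the copies of the RBFOX motif nearest to it. In the first line, from 79799832 to 79799983, capitals mark the motif in the intron and then the whole exon, which opens with its stop codon. In the second line, from 79800254 to 79800372, capitals mark the motif near the end of the downstream intron.
RPS24 upstream intron and exon: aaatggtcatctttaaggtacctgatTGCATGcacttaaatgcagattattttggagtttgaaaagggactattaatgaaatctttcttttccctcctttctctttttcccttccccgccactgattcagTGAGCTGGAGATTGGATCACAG
RPS24 downstream intron end: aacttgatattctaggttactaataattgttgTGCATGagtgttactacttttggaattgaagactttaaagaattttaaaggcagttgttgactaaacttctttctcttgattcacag
The upstream copy ends 98 nt before the exon. The nearest downstream copy starts at nucleotide 303 of an intron of 389 nt, just outside the 300 nt that were searched beside every exon.

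PSI of the 22 nt RPS24 exon was 0.118 and 0.149 in the RBFOXi libraries and 0.266 and 0.302 in the SCRM libraries. Both RBFOXi values lay below both SCRM values, and the gap between the groups was wider than the gap within either. The RBFOXi mean was 0.133 ± 0.0224 and the SCRM mean 0.284 ± 0.0252 (SD, n = 2 for each). Inclusion rested on 354 and 448 counts with RBFOXi and 1647 and 848 with SCRM, against 5630 to 13029 counts of skipping per library. The log2 odds of inclusion differed by -1.37 ± 0.235 (SE), with an adjusted p of 0.0576 in limma. The exon was therefore not called. The adjusted p depended on the settings. It was 0.0168 in limma with a pseudocount of 1 but 0.887 with one of 0.1, and 0.000206 with a filter of 1 count per library but 0.0591 with one of 20 counts. The exon also passed without RBFOXi replicate 2 (adjusted p = 0.0145). A quasi-binomial F test, chosen after the data had been seen, gave an adjusted p of 0.00364. Without RBFOXi replicate 1 the adjusted p was 0.121, and without SCRM replicate 1 or 2 it was 0.640 and 0.628. Delta PSI was negative in each of these fits, from -0.168 to -0.133 with a library left out.

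The level of PSI for so short an exon depends strongly on the effective lengths, which were given as 30 for inclusion and 86 for skipping. As a plain share of counts, inclusion was 0.0444 and 0.0577 with RBFOXi and 0.112 and 0.131 with SCRM, so that the difference shrank to -0.0705, under the minimum for a call. The groups stayed apart on this scale, and the log2 odds difference does not depend on the lengths. The other tested exon of RPS24, of 18 nt (79797723 to 79797740), carries a further annotated stop codon at 79797726. It had 2 copies of UGCAUG in the 300 nt downstream. Its PSI was 0 and 0.00315 with RBFOXi and 0.000849 and 0.00489 with SCRM. It was therefore almost absent in all 4 libraries. The remaining 2 listed exons of RPS24, of 66 and 210 nt, had too few skipping counts for a test.

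The 5 member exon events with a mean PSI between 0.1 and 0.9 in SCRM are plotted by library.

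**Figure D1:**
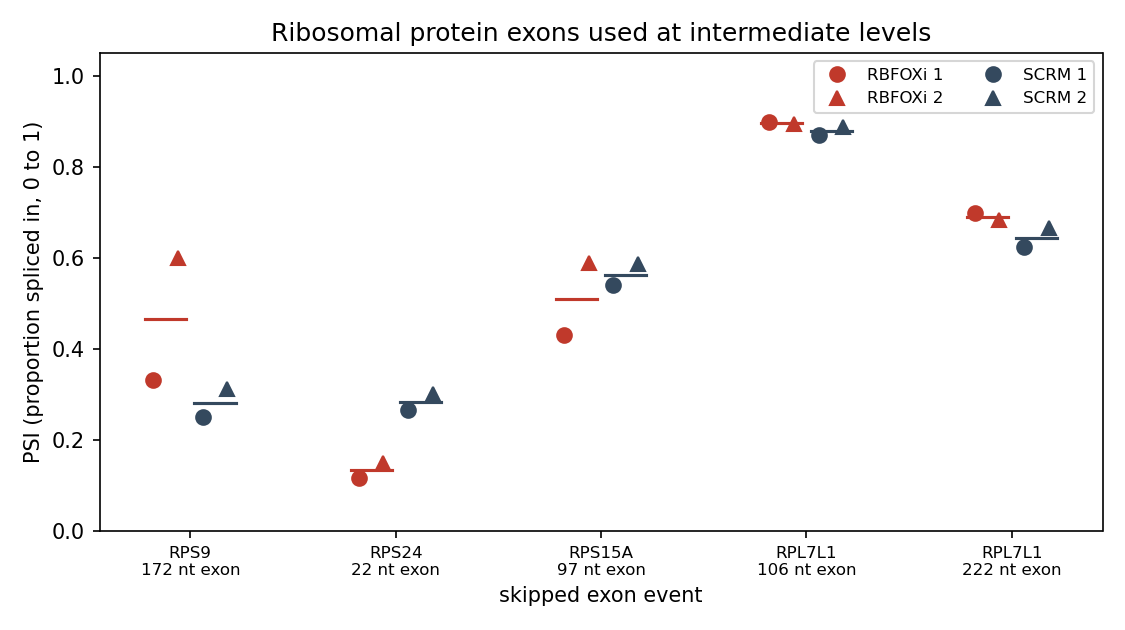
PSI (0 to 1, vertical axis) of the 5 member skipped exon events of intermediate use (horizontal axis), with 1 point per library and a line at each group mean (red RBFOXi, dark blue SCRM; n = 2 each). The RPS24 exon sits at 0.118 and 0.149 with RBFOXi below 0.266 and 0.302 with SCRM, and the 2 RBFOXi values of the RPS9 exon are far apart.

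RPS9, a small subunit protein, had the other difference of over 0.1 in size. Its exon of 172 nt (chromosome 19, 54710421 to 54710592, plus strand) appears in 3 events that differ in the neighbouring exons, and the one with the most counts is the one the naming rule picked. In that event PSI was 0.0154 and 0.0430 with RBFOXi and 0.0104 and 0.0121 with SCRM, a log2 odds difference of 1.22 ± 0.378 (SE; limma, unadjusted p = 0.00636, adjusted p = 1.00). Its adjusted p fell to 0.000142 without RBFOXi replicate 1, where delta PSI was 0.0318, under the minimum for a call. The other 2 events of the exon were picked out after their values had been seen. In one, PSI was 0.331 and 0.6004 with RBFOXi against 0.25 and 0.312 with SCRM, on 254 to 842 counts, and its delta PSI was 0.185. In the other, PSI was 0.987 and 1 with RBFOXi against 0.970 and 0.943 with SCRM, on only 0 to 3 skipping counts per library. RBFOXi replicate 2 was the highest library in all 3. Without it, delta PSI of the largest difference fell from 0.185 to 0.0501, and without RBFOXi replicate 1 it was 0.319 with an adjusted p of 0.0334 in limma. These events share inclusion or skipping counts, so they are not separate evidence.

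The other exons of intermediate use differed less. RPL7L1, a paralogue of RPL7, has overlapping exons of 222 nt and 106 nt on chromosome 6 (both starting at 42848599). PSI of the longer one was 0.698 and 0.684 with RBFOXi and 0.625 and 0.665 with SCRM. PSI of the shorter one was 0.898 and 0.894 against 0.870 and 0.888. RBFOXi lay above SCRM in both, but the events share their 8 to 33 skipping counts per library, and the adjusted p was 1.00 for each in limma. Without SCRM replicate 1, delta PSI fell from 0.0463 to 0.0262 in the longer one and from 0.0174 to 0.00833 in the shorter. The intermediate level rests on the effective lengths, which were 220 for inclusion of the longer exon, 104 for the shorter and only 12 for skipping. As a plain share of counts, inclusion was 0.968 to 0.977 for the longer exon and 0.983 to 0.987 for the shorter. RPS15A, another small subunit protein, has an exon of 97 nt (chromosome 16, 18797562 to 18797658, minus strand). In its event of intermediate use, PSI was 0.431 and 0.590 against 0.540 and 0.587, so the groups overlapped. That event had a mean of only 150 counts per library. Another event of the same exon had a mean of 17364 counts, and there the exon was almost absent. Its PSI was 0.00446 and 0.00474 with RBFOXi and 0.00552 and 0.00519 with SCRM. RBFOXi lay below SCRM there, with a delta PSI of -0.000752 (limma, unadjusted p = 0.446).

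Of the 259 member skipped exon events, in 73 genes, 155 passed the filter on counts, in 65 genes. Of the 104 that did not, 102 had fewer than 4 skipping counts over the 4 libraries, so the filter itself removed the exons that were seldom seen skipped. No member event was called, against 0.0682% of the 39615 skipped exon events tested. At an unadjusted p under 0.05 there were 8 member events (5.16%), beside 3.61% of all tested. The quasi-binomial F test called 1 member event (0.131% of all tested), and 2 were called by Fisher's exact test on counts added over replicates (0.8% of all tested). RBFOXi lay wholly above SCRM in 34 member events (21.9%), beside 14.3% of all tested, and wholly below in 15 (9.68%), beside 16.5%. Many of these events share an exon or a gene, so the counts are not independent.

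Most member exons were included almost completely. Mean PSI in SCRM was at least 0.99 in 137 of 155 events (88.4%), compared with 37.4% of all tested, and between 0.1 and 0.9 in 5 (3.23%), compared with 18.7%. Depth was high, with a median of 28144 counts per event and library against 492 over all tested events. The median size of delta PSI was 0.000180 in members and 0.00803 over all tested. Of the 155, 9 had a delta PSI of at least 0.01 in size, beside 44.9% of all tested.

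**Figure D2:**
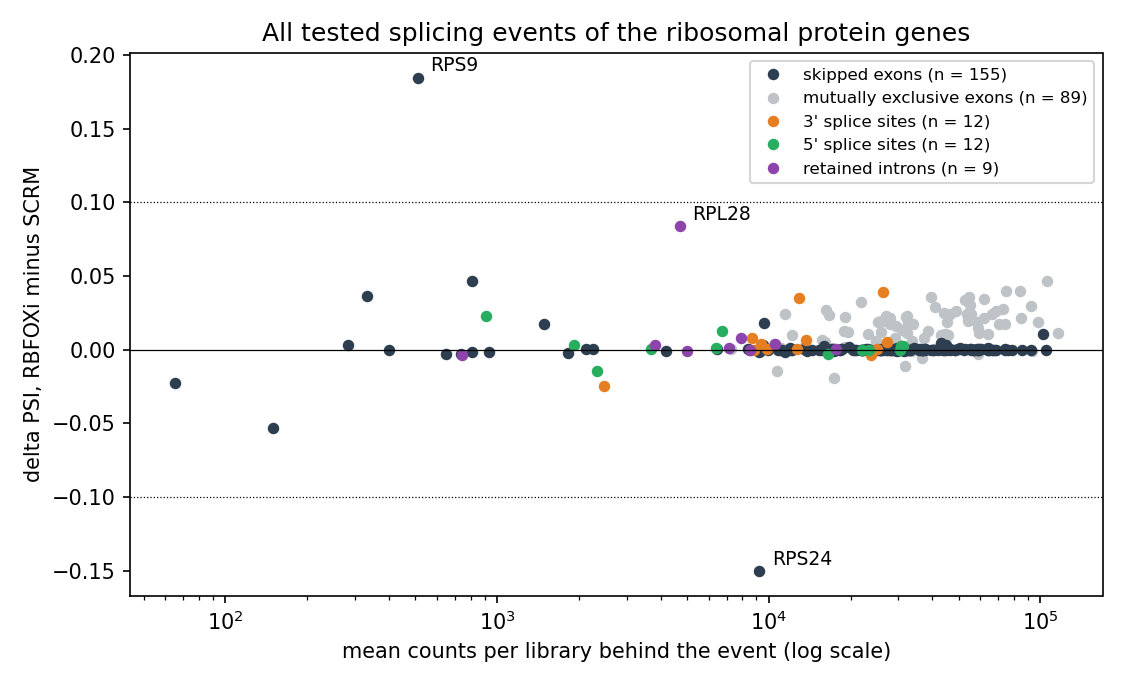
Delta PSI (RBFOXi minus SCRM, vertical axis) of every tested member event against the mean counts per library behind it (horizontal axis, log scale), with 1 point per event and dotted lines at the size of 0.1 that a call requires. RPS24 at -0.150 and RPS9 at 0.185 are the only points outside the lines, and the grey points of mutually exclusive exons lie mostly above 0.

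Differences in very small skipped fractions made up the rest of the named exons. RPL36A, a large subunit protein, had PSI of 0.998 and 0.998 with RBFOXi and 0.994 and 0.995 with SCRM at an exon of 123 nt, with 6 to 31 skipping counts per library. RPL10, a late-joining large subunit protein, had 0.99 and 0.991 against 0.982 and 0.989, and its delta PSI of 0.00461 was 0.00107 without SCRM replicate 1. RBFOXi lay above SCRM in both and also in RPS2 (delta PSI 0.00305) and RPL22 (delta PSI 0.00220). The exon of RPS3, a small subunit protein at the messenger RNA entry, lay the other way (0.962 and 0.935 against 0.975 and 0.968), on only 1 or 2 skipping counts per library. Their adjusted p was 1.00 in limma for each. Beyond RPS24, the unadjusted p values under 0.05 were in RPS9 (3 events), RPL22 (2), RPS29 (1) and RPL36 (1), a list read off after the values had been seen. The RPS29 exon had PSI of 0.9996 and 0.9994 with RBFOXi against 0.9999 and 1 with SCRM, a delta PSI of -0.000469.

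The exons were also described by features that the symbol rule did not use. The 155 tested events lie at 124 distinct exons. Of these, 12 (9.68%) had UGCAUG in the 300 nt of intron downstream, on the strand of the gene, and 10 (8.06%) in the 300 nt upstream. Over the 30493 distinct exons of all other genes the shares were 8.36% and 8.16%. The shares lie close together. Among the 12 exons with a downstream copy, delta PSI was at most 0.00220 in size, and 2 had an unadjusted p under 0.05, both in RPL22, where the exons of 108 and 125 nt overlap. Member exons had a median length of 108 nt (120 nt in the others) and much shorter introns around them, with medians of 720 nt upstream and 682 nt downstream against 2610 and 2340 nt. An annotated small nucleolar RNA lay in the introns beside 36 of the 124 (29.0%). This share was not counted in the other genes, so it has no comparison.

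Alternative 3′ splice sites were listed for 12 member genes in 16 events, of which 12 were tested. None was called, as in all 3009 tested (0%). RBFOXi lay above SCRM in 6 of the 12 (50.0%) and below in 0, beside 16.7% and 14.2% of all tested. Neither the quasi-binomial F test (0 of all 3009) nor Fisher's exact test (20 of all 3009) called a member. No member site reached the delta PSI minimum, so no test could call one. At an unadjusted p under 0.05 in limma there were 3, beside 3.32% of all tested. These 3 were in RPL3, RPL22L1 and RPLP0. Sequences are printed for the pair of genes whose minor site adds intron sequence to the message, from 40 nt before to 15 nt after each 3′ splice site, with the AG of the site in capitals.
RPL3 upstream site, chromosome 22, 39713012 to 39713066, minus strand: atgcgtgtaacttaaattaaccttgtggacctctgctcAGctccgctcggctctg
RPL3 downstream site, 39712832 to 39712886: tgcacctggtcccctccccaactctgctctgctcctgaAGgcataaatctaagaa
RPL22L1 upstream site, chromosome 3, 170585976 to 170586030, minus strand: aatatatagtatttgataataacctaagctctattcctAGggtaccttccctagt
RPL22L1 downstream site, 170585909 to 170585963: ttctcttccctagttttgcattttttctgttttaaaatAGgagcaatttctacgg

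RPL3, which reaches toward the peptidyl transferase centre, is known to control its own level through retention of part of an intron. Use of its upstream site adds 180 nt. PSI of that form was 0.00791 and 0.0147 with RBFOXi and 0.00574 and 0.00661 with SCRM, from 452 to 1074 inclusion counts. Both RBFOXi libraries lay above both SCRM libraries, RBFOXi replicate 1 only slightly. The log2 odds difference was 0.81 ± 0.236 (SE; limma, unadjusted p = 0.00466, adjusted p = 0.999). Without RBFOXi replicate 2 it was 0.36. Without SCRM replicate 2 the adjusted p was 0.000501, but delta PSI was 0.00557, far under the minimum for a call. RPL22L1 is a paralogue of RPL22, and both annotated transcripts that carry the 67 nt added by its upstream site are marked as targets of nonsense-mediated decay. PSI of that form was 0.0205 and 0.0303 with RBFOXi and 0.0187 and 0.0188 with SCRM, a log2 odds difference of 0.42 ± 0.192 (SE; adjusted p = 0.999). RBFOXi replicate 2 was again the highest library.

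RPLP0, the large subunit protein that anchors the acidic stalk, used an upstream site (60 nt, chromosome 12, 120638635 to 120638694, minus strand) much more often. No annotated transcript has coding sequence in this stretch. PSI was 0.333 and 0.337 with RBFOXi and 0.274 and 0.318 with SCRM, a delta PSI of 0.0393 (log2 odds 0.27 ± 0.119, SE; adjusted p = 0.999). It was 0.0172 without SCRM replicate 1, and 0.0613 with an adjusted p of 0.0483 in limma without SCRM replicate 2, under the minimum for a call. RPL28, a large subunit protein, had 0.770 and 0.812 against 0.756 and 0.756 for a region of 3311 nt, where the skipping form had only 80 to 133 counts per library. Its delta PSI of 0.0351 came to 0.00145 as a plain share of counts. RPS21, a small subunit protein, had 0.975 and 0.978 against 0.969 and 0.968 for a region of 466 nt. It had only 20 to 42 skipping counts per library, and its delta PSI of 0.00771 was 0.000907 as a plain share. These 3 genes lay higher in RBFOXi without passing the test. RPL11 binds 5S ribosomal RNA and MDM2, and its adjacent sites differ by 3 nt (chromosome 1, 24019099 to 24019101). The sequence around them is shown because the CAG repeated at the boundary gives the choice of sites, with the AG of the first in capitals.
RPL11 sites, chromosome 1, 24019059 to 24019113, plus strand: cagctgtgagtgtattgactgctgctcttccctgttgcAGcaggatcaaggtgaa
The upstream RPL11 site was used at 0.684 and 0.719 with RBFOXi and 0.735 and 0.718 with SCRM. The groups overlapped, and delta PSI was -0.0250 (-0.0164 without SCRM replicate 1), with a log2 odds difference of -0.18 ± 0.161 (SE; adjusted p = 0.999).

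Retained introns were listed in 9 events of 7 member genes, and all 9 were tested. None was called (0% of the 1034 tested), and at an unadjusted p under 0.05 there were 0, beside 1.74% of all tested. The quasi-binomial F test and Fisher's exact test also called 0 members, beside 0 and 30 of the 1034 tested. No member intron reached the delta PSI minimum, so no test could call one. RBFOXi lay wholly above SCRM in 4 of the 9 (44.4%) and wholly below in 0, beside 15.3% and 12.7% of all tested. The log2 odds difference was positive in 6 of the 9 and negative in 3. RPL10A, a large subunit protein with known splicing autoregulation, had an intron of 353 nt (chromosome 6, 35436805 to 35437157) with PSI of 0.0183 and 0.0309 with RBFOXi and 0.0159 and 0.0170 with SCRM. RPS9 had an intron of 935 nt at 0.0167 and 0.0136 against 0.0116 and 0.0105. That intron contains the 172 nt exon of RPS9, and its skipping counts equal those of the most covered event of that exon. The intron and the exon are therefore not separate evidence. RPS21 had an intron of 394 nt at 0.0137 and 0.0114 against 0.00956 and 0.00932. It lies inside the 466 nt region of the RPS21 3′ splice site. RPS16, a small subunit protein, had an intron of 95 nt at 0.00400 and 0.00370 against 0.00278 and 0.00278. These 4 introns were all minor forms, and their log2 odds differences ran from 0.41 to 0.55 with standard errors of 0.288 to 0.348. Another RPS21 intron, of 92 nt, had 0.0552 and 0.0476 against 0.0533 and 0.0574. The groups overlapped there, and delta PSI was -0.00395. The long RPL28 intron (3505 nt) was the exception in level, at 0.5005 and 0.654 against 0.419 and 0.568, and there the groups overlapped. That level rests on effective lengths of 3577 and 86, since the plain shares of inclusion counts were 0.968 to 0.987 and differed by 0.00710 between the groups. With a library left out, delta PSI of this intron ran from 0.00691 to 0.160. Its skipping counts are the same 80 to 133 as those of the RPL28 3′ splice site.

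**Figure D3:**
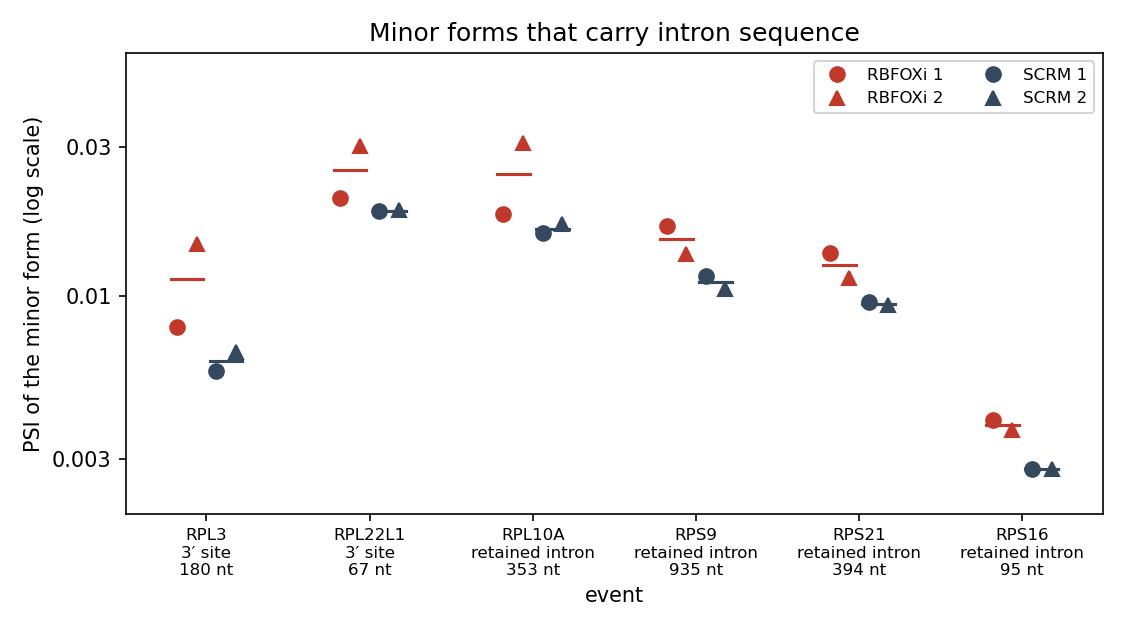
PSI of 6 minor member forms (vertical axis, log scale) for each event (horizontal axis), with 1 point per library and a line at each group mean (red RBFOXi, dark blue SCRM; n = 2 each). The RBFOXi points lie above the SCRM points in each event because only separated events with RBFOXi higher were plotted. RBFOXi replicate 2 is far higher than replicate 1 in RPL3, RPL22L1 and RPL10A but not in RPS9, RPS21 and RPS16.

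Alternative 5′ splice sites were listed in 13 events of 9 member genes, with 12 tested. None was called (0% of 2281), and 1 had an unadjusted p under 0.05 in limma, beside 3.59% of all tested. The quasi-binomial F test and Fisher's exact test called no member either, beside 0 and 28 of all 2281. No member site reached the delta PSI minimum, so no test could call one. The libraries of the groups were separated in 3 (25.0%), beside 30.1% of all tested. RPL7L1 used the downstream site that adds 116 nt (42848705 to 42848820, the stretch by which its longer exon exceeds the shorter) at 0.0678 and 0.0698 with RBFOXi and 0.0398 and 0.0529 with SCRM. Its log2 odds difference was 0.61 ± 0.249 (SE; limma, unadjusted p = 0.0380 and adjusted p = 0.995), on 22 to 174 inclusion counts. RPL13A, a large subunit protein, had 0.992 and 0.989 against 0.993 and 0.994 for a site 10 nt away. RPSA, which is also known as the laminin receptor, had 0.00102 and 0.00107 against 0.00133 and 0.00141 for one of 15 nt. RBFOXi lay below SCRM in both of these. The sites used at intermediate levels overlapped between groups. RPS14, the small subunit protein linked to the 5q- syndrome, had 0.595 and 0.569 against 0.614 and 0.580 (6 nt), and RPL6, a large subunit protein, had 0.305 and 0.350 against 0.272 and 0.357 (176 nt).

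The read support of a gene was taken as the total count at its most covered skipped exon event, scaled to the median gene, since gene level counts were not used here. It is not a measure of expression alone, and fewer cells and less RNA per cell cannot be told apart in such bulk samples. SCRM replicate 1 was the highest library in 72 of 73 member genes, compared with 42.8% of all 10629 genes tested. RPS24 had log2 normalised counts of 15.43 and 15.23 with RBFOXi and 16.71 and 15.15 with SCRM. RPLP2, a stalk protein, had 14.24 and 13.99 against 15.69 and 13.84. RPL3 had 16.65 and 16.37 against 17.38 and 16.27. In each, 1 SCRM library lay above and the other below both RBFOXi libraries. RPL4, a large subunit protein that lines the exit tunnel, hardly varied (16.17 and 16.17 against 16.28 and 16.13). RPL7L1 ran the other way (10.66 and 10.94 against 10.15 and 11.04), lowest in SCRM replicate 1.

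**Figure D4:**
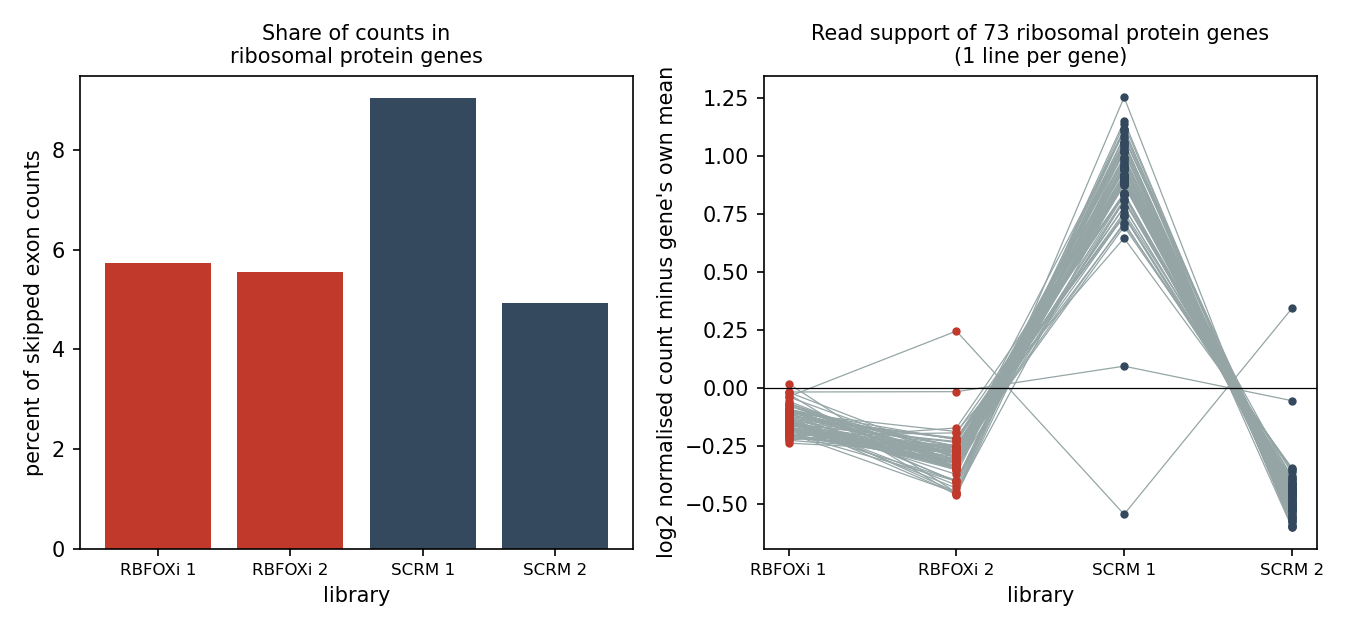
Left, percent of all skipped exon counts in member genes (vertical axis, from 0) for each library; right, log2 normalised count of each of 73 member genes minus its own mean over the libraries (vertical axis), joined by 1 line per gene. SCRM replicate 1 holds 9.04% of counts in members and is the highest library in 72 of the 73 genes.

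The median log2 difference of RBFOXi minus SCRM over the members was -0.45, with 72 of 73 genes lower. The median of the other genes was -0.0012, which the scaling to the median gene sets near 0. No member was called by limma (0% of the 10629 genes tested) and 0 members, against 8 of all genes, had an unadjusted p under 0.05. The difference rested on SCRM replicate 1. Without it, the median over the members was 0.28 and 72 of 73 were higher, with 0 called. Without SCRM replicate 2, the median was -1.15 and 69 members were called lower, in a fit that called 40.2% of all genes. Scaling to library totals instead of the median gene gave a member median of -0.19 and shifted the other genes to 0.26. No direction of the ribosomal protein genes as a group can therefore be read from these libraries.

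Genes of related function were set beside the members by how far SCRM replicate 1 stood from the mean of the other 3 libraries. This log2 difference had a median of 1.23 in large subunit genes (n = 45), 1.21 in small subunit genes (n = 28), 1.48 in the stalk genes RPLP0, RPLP1 and RPLP2, 1.47 in the MDM2-binding RPL11 and RPL23, 1.19 in the 5 paralogues with support, 1.08 in the 4 genes with known splicing autoregulation (RPL3, RPL10A, RPL12 and RPS13) and 1.30 in 13 Diamond-Blackfan anaemia genes. It was also high in the mitochondrial ribosomal proteins, at 0.94 (n = 67). It was smaller in translation factors, at 0.24 (n = 56), and ribosome assembly factors, at 0.32 (n = 68). Over all genes it was 0.01, a value that the scaling to the median gene sets near 0. In none of these lists was a skipped exon or other event called. Over all genes, 0.0682% of the 39615 tested skipped exon events were called, and 0 of the 32500 other tested events. At an unadjusted p under 0.05 there were 3 of 86 skipped exon events in large subunit genes, 5 of 69 in small subunit genes, 2 of 23 in Diamond-Blackfan anaemia genes, 1 of 188 in mitochondrial ribosomal proteins, 9 of 293 in translation factors and 10 of 197 in assembly factors. There were 0 of 10 in stalk genes, 0 of 3 in the MDM2-binding genes, 0 of 7 in paralogues and 0 of 10 in the autoregulated genes. Over all tested skipped exon events the share under 0.05 in limma was 3.61%.

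Mutually exclusive exon events pair neighbouring exons and count reads for the upstream and the downstream one. Most member exons were included almost completely as skipped exon events. PSI here is therefore read as the share of the upstream exon of the pair, in counts divided by effective length. It is not read as a choice between forms. All 89 member events, in 41 genes, were tested. None was called (0% of 26176), and 4 had an unadjusted p under 0.05 in limma, beside 1.51% of all tested. The quasi-binomial F test and Fisher's exact test called 0 members, beside 2 and 199 of all 26176. With all 4 libraries no member pair reached the delta PSI minimum, so no test could call one. Fisher's exact test gave an unadjusted p under 0.05 in 77 of the 89. Without SCRM replicate 2, limma called 2 members, in a fit that called 5.52% of all events. The groups were separated in 9 (10.1%), beside 24.4% of all tested. Of the 4, 3 are RPS9 pairs, and in 1 of them PSI was 0.991 and 0.975 with RBFOXi and 0.994 and 0.994 with SCRM. Downstream counts there (215 and 682 with RBFOXi, 280 and 143 with SCRM) equal the inclusion counts of the RPS9 event with delta PSI 0.185. Those of the other RPS9 pairs equal the inclusion counts of a further event of that exon. The exon was seldom included in its most covered event. In that library order, the RPL13A pair had 91, 138, 101 and 66 upstream counts. The RPL13A 5′ site had 91, 138, 100 and 66 skipping counts. These 4 pairs are not separate evidence.

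SCRM replicate 1 also stood apart in the upstream share. Its median over the 89 events was 0.589 and 0.593 with RBFOXi, 0.531 in SCRM replicate 1 and 0.598 in SCRM replicate 2. SCRM replicate 1 was the lowest of the 4 libraries in 80 of 89 member events (89.9%) and in 59.9% of all tested events. The median of delta PSI over the members was 0.0162, and -0.00809 when SCRM replicate 1 was left out of the SCRM mean. RPL22L1 had 0.606 and 0.595 with RBFOXi against 0.532 and 0.615 with SCRM. RPL12, a large subunit protein at the stalk base, had 0.611 and 0.632 against 0.592 and 0.626, and RPS13, a small subunit protein, 0.280 and 0.275 against 0.249 and 0.282. In these 3 SCRM replicate 1 was lowest and SCRM replicate 2 lay within or above the RBFOXi values. Among the separated pairs, RPL21 had 0.0986 and 0.116 against 0.0699 and 0.0964, RPL7A 0.664 and 0.676 against 0.653 and 0.662, RPS16 0.895 and 0.894 against 0.873 and 0.894, and RPS19 0.914 and 0.914 against 0.914 and 0.914. In RPL21, RPL7A and RPS16 the nearest values of the groups lay closer together than the SCRM libraries did. Without SCRM replicate 1, delta PSI fell from 0.0241 to 0.0108 in RPL21, from 0.0127 to 0.00815 in RPL7A and from 0.0108 to 0.000645 in RPS16. In RPS19 the values were further apart than the SCRM libraries, but the whole difference was -0.000645. The part of SCRM replicate 1 in the other event types was not tested beyond the fits without it.

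**Figure D5:**
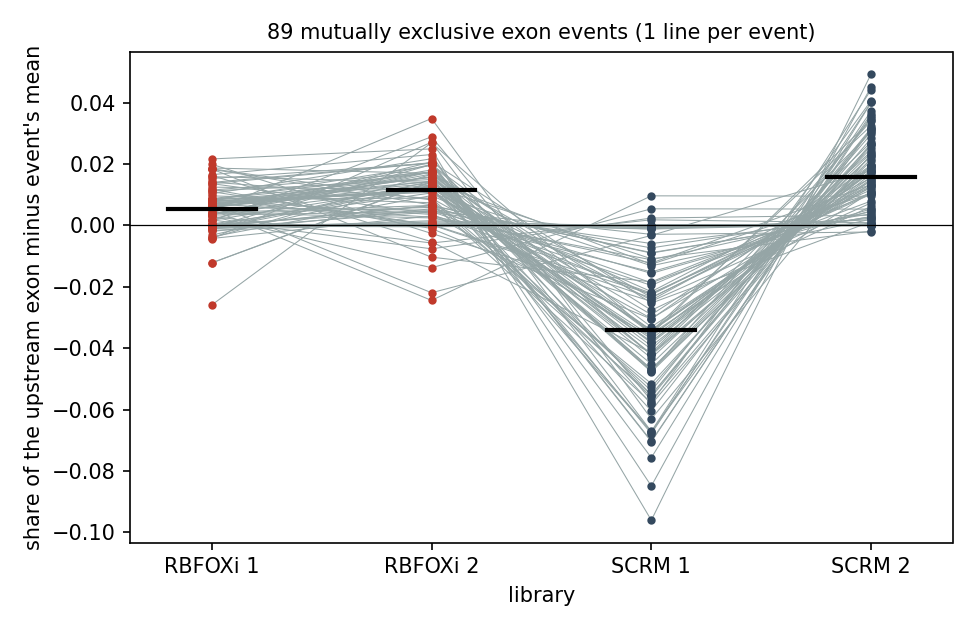
Share of the upstream exon minus the event's own mean over the 4 libraries (vertical axis) for each library (horizontal axis), with 1 line per member event and a black bar at the median. SCRM replicate 1 is the lowest library in 80 of the 89 events, while SCRM replicate 2 lies with or above the RBFOXi libraries.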

How the data were processed

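RNA-seq of 4 U87MG libraries was read from 5 tables of splicing events. The authors used STAR 2.4.2a for unique alignment to hg19, and rMATS with UCSC known genes to count reads of each event. The deposited values used are whole counts of inclusion and skipping per library, without normalization, as 2 values in 1 cell, and the effective lengths of both forms. The authors' p-values, FDR and inclusion levels were not used. Members and lists were chosen with earlier results of these data known.

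Events were kept from 5 counts per library, a mean of 20 and 4 counts of each form, and fitted with limma 3.58.1 (R 4.3.3; pseudocount 0.5, condition only, variance trend, two-sided, adjusted within event type). Read support was fitted with limma on log2 counts (mean of at least 20, median scaling), where a count model had been planned. Both fits were tested on simulated data. Introns came from GRCh37, which is hg19, and transcripts from GENCODE 44 lifted to it. Python 3.11.15 was used.

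Named events were those with the largest delta PSI among separated libraries, the RPS24 exons, the most intermediate event of 5 genes and the most covered events with a SCRM PSI of 0.1 to 0.9, leaving out mutually exclusive exons in the last. An exon that the rule named and a list are not reported here. Alternatives covered the test, pseudocount, count filter, replicate block, delta PSI minimum, plain shares, motif window and each library left out. Reads are not independent molecules, so the limma fits rest on the spread between libraries. Fisher's exact test, an alternative on pooled counts, ignores that spread.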

Additional observations from a re-analysis of the deposited data

How the results depend on the processing

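The number of member skipped exon events called, 0 as reported, was 1 with the quasi-binomial F test (added after the data were seen; 52 over all events), 2 with Fisher's exact test on pooled counts (317), 1 with a pseudocount of 1 (40) and 1 when a single count per library was required (44). It ranged from 0 to 1 with a library left out. RPS24 was the event called in each of these except without RBFOXi replicate 1, where it was the RPS9 exon, which was the second event under Fisher's exact test. A pseudocount of 0.1, a filter of 20 counts, other delta PSI minimums and plain shares gave 0. The other event types gave 0 in every setting, except for a range of 0 to 2 in mutually exclusive exons (2 without SCRM replicate 2, against 1431 of all 25913 events). Called members in read support ranged from 0 to 69, and the member median from -1.15 to 0.28, reversed without SCRM replicate 1.

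The replicate block called 2 member skipped exon events, RPS24 (adjusted p = 7.82e-08) and RPS9 (adjusted p = 0.0447), and 119 of all. The titles of same-numbered libraries share an ending whose meaning the labels do not give, so the pairing is not established. Deviations of same-numbered libraries correlated at 0.0836 to 0.118 over the 5 event types, across events that are not independent.

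For single named events, 11 values changed sign with a library left out, none of them called. Over the fits with a library left out, delta PSI ran from -0.0296 to 0.0556 at the RPL6 5′ site, from -0.0312 to 0.00215 at RPS14, from -0.00453 to 0.0297 in the RPL12 exon pair, from -0.0150 to 0.0685 in that of RPL22L1, from -0.00427 to 0.0280 in that of RPS13, from -0.000828 to 0.00127 in that of RPL10A, from -0.00332 to 0.000283 at the 18 nt exon of RPS24 (not tested without SCRM replicate 2, where it had too few inclusion counts), from -0.132 to 0.0264 at RPS15A and from -0.00134 to 0.00120 at the 96 nt RPL3 exon. These fits assume that the lone library of a group varies like the others. The planned count-model alternatives could not be run on cells that hold 2 values. With 2 libraries per group, a difference that was not called is not shown to be absent.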
